A study of Rattus norvegicus with 4 samples.

Results

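The transcripts of the mitochondrial respiratory chain and ATP synthase were compared between estradiol-treated and placebo-treated rats, in cerebral cortex of the hemisphere injured by an experimental stroke. A probe set was included if it was no control and if its single gene symbol in the array's annotation began with Nduf, Uqcr, Atp5 or Cox4 to Cox8, or was Sdha, Sdhb, Sdhc, Sdhd, Cycs or Cyc1. This gave 101 probe sets of 55 genes, out of 4736 genes with a single symbol, and of each gene the probe set with the highest mean over the 4 arrays was used. The genes were 27 of complex I, 1 of complex II, 4 of complex III, 13 of complex IV and 10 of complex V, the ATP synthase. Complexes were assigned from the gene symbol alone, not from the place of each protein. All animals were ovariectomised female rats with a middle cerebral artery occlusion of 2 h. Both groups thus lacked the hormones of their own ovaries and carried the injury. One group received 17beta-estradiol and the other placebo; no age, strain or dose is given in the sources used here. Each group had 2 arrays, each carrying RNA pooled from 3 animals, so that variation between single animals was not measured. The series text speaks of tissue taken at 6 and 24 h, but no sample label states the time in words. The 2 pools of a group are called estradiol 1 and 2 and placebo 1 and 2.

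The respiratory chain passes electrons from NADH and succinate to oxygen and pumps protons across the inner mitochondrial membrane, and ATP synthase uses that gradient to make ATP. Complex I takes electrons from NADH, complex II from succinate, complex III hands them to cytochrome c, and complex IV, cytochrome c oxidase, reduces oxygen. Neurons depend heavily on this pathway, and it stalls when blood flow stops. Most subunits are encoded in the nucleus, and the genes described here are all nuclear; none of the mitochondrially encoded subunits was among the genes named on this array.

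The values were deposited intensities on a linear scale, scaled by the authors so that the mean of each array after trimming 2% at each end was 149.996. Array medians lay between 55.0 and 57.8. Of the 55 genes, 52 lay above the brightest foreign control (bacterial, yeast or mouse sequences, at 30.1 to 37.8) on all 4 arrays, and all 55 passed the filter at a mean intensity of 37.5. The 3'/5' signal ratio of long control transcripts, which reflects how intact and how fully copied the RNA was, stood highest in estradiol 2 for actin (1.58, against 1.28 to 1.47 in the other pools) and hexokinase (4.35, against 3.08 to 3.64), and lowest there for GAPDH (1.30, against 1.38 to 1.45). The part of these ratios in the values below was not tested. Pools varied widely in signs of neighbouring tissue: Ttr, a transcript abundant in choroid plexus, was measured at 165 and 4312 under estradiol against 8034 and 74.3 under placebo.

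None of the 55 genes passed the test between treatments. With limma on log2(intensity + 16) and Benjamini-Hochberg adjustment over 5244 probe sets, 0 were called higher and 0 lower, as were 0% of all probe sets tested in either direction, and the adjusted p of each of the 55 was 0.998. At an unadjusted p under 0.05 in limma there were also 0 of the 55, where this level was reached by 1.74% of all probe sets as higher and 1.33% as lower. The smallest unadjusted p among them in limma was 0.110, for Cox6a1. The median log2 fold change (estradiol minus placebo) was -0.071 over the 55 genes and 0.011 over all probe sets tested. Of the 55, 33 had values below 0, or 60.0%, against 48.4% of all probe sets. The standard error of a gene's log2 fold change in the fit ranged from 0.18 to 0.70 with a median of 0.22, while 35 of the 55 log2 fold changes, or 63.6%, were smaller in size than 0.25, against 64.9% of all probe sets. For 41 of the 55, the larger of the differences between pools of one group exceeded the difference between treatments. A difference between single pools varies more than one between means of 2 pools, so a high count arises without any effect. No share over all probe sets was computed, and the count is no result about these genes.

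**Figure D1:**
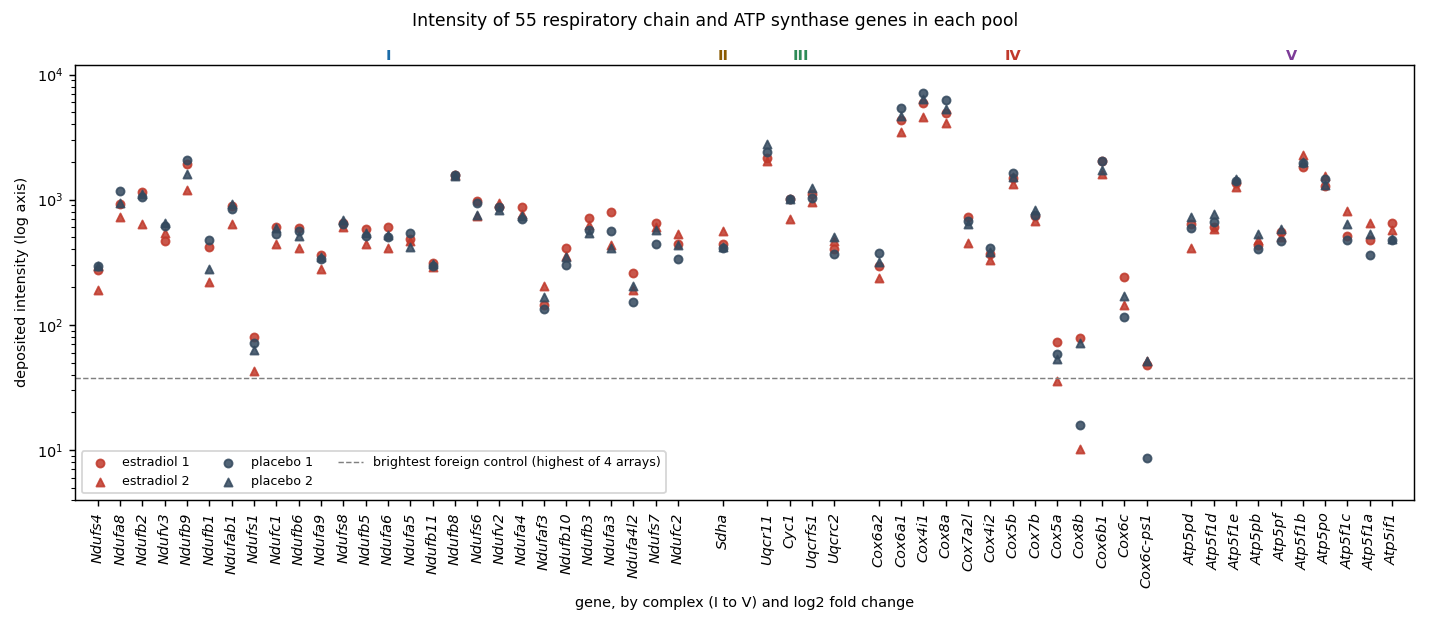
Deposited intensity (log axis) of the 55 genes in each of the 4 pools, by complex; red points are estradiol pools, dark points placebo pools, and the dashed line is the highest foreign control, 37.8. Most genes lie well above that line with the 4 pools close together, and Cox5a, Cox8b and Cox6c-ps1 have values on both sides of it.

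Complex IV had the most one-sided values, with 11 of 13 genes below 0 under estradiol and a median log2 fold change of -0.15. Bright probe sets of Cox5a and Cox7a2, not counted here because they carry several symbols, lay above 0. Both estradiol pools lay below both placebo pools for 7 of the 13, against 14.3% of all probe sets tested, and above them for 0, against 15.4%. These counts depend on the assignment by symbol, which placed Ndufa4, with both estradiol pools higher, in complex I. The lowest 4 values belonged to genes of ubiquitous or tissue-specific subunits of the oxidase. Cox4i1, the common isoform of the regulatory subunit 4, stood at 5943 and 4611 under estradiol against 7059 and 6345 under placebo. Both estradiol values were the lower ones, with means of 5277 ± 942 (SD, n = 2) and 6702 ± 505 (SD, n = 2) that differed by -21.3%. The log2 fold change of Cox4i1 was -0.35 ± 0.20 (SE), with a 95% confidence interval from -0.83 to 0.12. Cox6a1, the non-muscle isoform of subunit 6A, stood at 4305 and 3495 under estradiol against 5357 and 4644 under placebo, a log2 fold change of -0.36 ± 0.20 (SE). Cox8a, the common isoform of subunit 8, stood at 4969 and 4101 against 6242 and 5297, a log2 fold change of -0.35 ± 0.20 (SE). The 3 genes thus shared 1 order of pools, with estradiol 2 lowest and placebo 1 highest. Cox6a2, known as the heart and muscle isoform of subunit 6A, had the same order at 293 and 235 against 372 and 318, with a log2 fold change of -0.37 ± 0.22 (SE). None of the 95% confidence intervals of these 4 genes left out 0.

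The promoters of Cox4i1 and Cox8a are shown as those of bright genes that shared an order of pools and held the letters described here. The windows come from RefSeq on GRCr8 and run 5′ to 3′ on the gene's strand, from 250 bases before to 30 bases after the start. Capitals mark CCGGAAG or its reverse complement, the core letters of a site for ETS factors such as GABP, a known regulator of oxidase genes. Each window held 2 such matches, which describe the letters and not a bound site. In complex IV the genes with a match were Cox4i1, Cox5b and Cox8a. Cox6a1 and Cox6a2, with the same order of pools, were not among them, though not every gene had a window. No link of the letters to an order of pools was tested.
Cox4i1, GRCr8 chr19:65630133-65630412, plus strand: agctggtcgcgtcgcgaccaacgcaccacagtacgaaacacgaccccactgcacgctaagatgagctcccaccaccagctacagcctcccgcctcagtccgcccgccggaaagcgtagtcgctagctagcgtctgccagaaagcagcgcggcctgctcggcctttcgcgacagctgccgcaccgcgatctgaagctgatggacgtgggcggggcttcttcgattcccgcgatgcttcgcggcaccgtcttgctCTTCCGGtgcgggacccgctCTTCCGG
Cox8a, GRCr8 chr1:213833594-213833873, minus strand: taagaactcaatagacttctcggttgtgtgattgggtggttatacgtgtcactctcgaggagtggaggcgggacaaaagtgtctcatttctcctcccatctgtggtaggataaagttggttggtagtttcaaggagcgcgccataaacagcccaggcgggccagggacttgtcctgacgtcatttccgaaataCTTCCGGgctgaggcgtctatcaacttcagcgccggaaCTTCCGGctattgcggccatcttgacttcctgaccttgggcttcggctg

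Smaller differences with the same sign were seen for Cox5b, Cox7b and Cox4i2. Cox5b, a subunit on the matrix side, stood at 1492 and 1328 under estradiol against 1624 and 1509 under placebo, which do not overlap, and had a log2 fold change of -0.15. Cox7b, a small membrane subunit, stood at 736 and 677 against 748 and 823 and had -0.15 as well. Cox4i2, the isoform of subunit 4 known for its expression in lung and its response to oxygen, stood at 368 and 332 against 408 and 378.5 and had -0.16. The other 4 genes below 0 had overlapping groups. Cox7a2l, a relative of subunit 7A known for assembling supercomplexes, stood at 733 and 453.5 against 674 and 635, and its log2 fold change of -0.18 turned to 0.16 without estradiol 2. Cox6b1, a subunit facing the intermembrane space, stood at 2054 and 1606 against 2021 and 1730, a log2 fold change of -0.042. Cox8b, the muscle isoform of subunit 8, stood at 78.4 and 10.1 under estradiol against 15.8 and 71.4 under placebo, so that 1 pool of each group lay within the background and no difference between treatments can be read. Cox5a, a matrix-side subunit, was likewise at background in estradiol 2, at 35.4, against 72.5 in estradiol 1 and 58.6 and 53.3 with placebo. A much brighter probe set that carries Cox5a beside another symbol, and so is not counted here, stood at 1697.8 and 1664.5 against 1414.6 and 1624. It had a log2 fold change of 0.15 and both estradiol pools higher. One of Cox7a2, not counted for the same reason, stood at 1726 and 1422 against 1469 and 1363, with 0.15 and overlapping groups. The 2 values above 0 were those of Cox6c, the gene of subunit 6C, and of Cox6c-ps1, a transcribed pseudogene that meets the naming rule. Cox6c-ps1 stood at 47.6 and 51.5 under estradiol against 8.70 and 51.1 under placebo, so its log2 fold change of 0.69 ± 0.51 (SE) came from placebo 1 alone and was -0.034 without that pool.

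The lean of complex IV rested in large part on estradiol 2. Without that pool, 7 of 13 genes were below 0 and the median was -0.069, whereas without estradiol 1 the median was -0.48 with 11 of 13 below 0. The values of Cox4i1, Cox6a1, Cox8a and Cox6a2 without estradiol 2 were -0.17, -0.21, -0.21 and -0.22. Sizes also depended on the processing: quantile normalization gave -0.19 for Cox4i1 and -0.17 for Cox8a, and the mean over the tested probe sets of a gene gave -0.18 for Cox6a1 and -0.20 for Cox6a2. Of the 8 oligodendrocyte markers tested, placebo 1 was the highest array for 7, while the lowest was estradiol 2 for 3 and placebo 2 for 5. Mbp, the myelin basic protein gene and the brightest of them, stood at 9112 and 7301 under estradiol against 12087 and 8178 under placebo. The markers, of which 8 of 10 were on the array and none was at background on all arrays, summed to 17682 and 13372 under estradiol against 21948 and 14104 under placebo. The part of these markers in the complex IV values was not tested. In pooled bulk tissue, fewer cells of a type and less RNA per cell cannot be told apart.

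**Figure D2:**
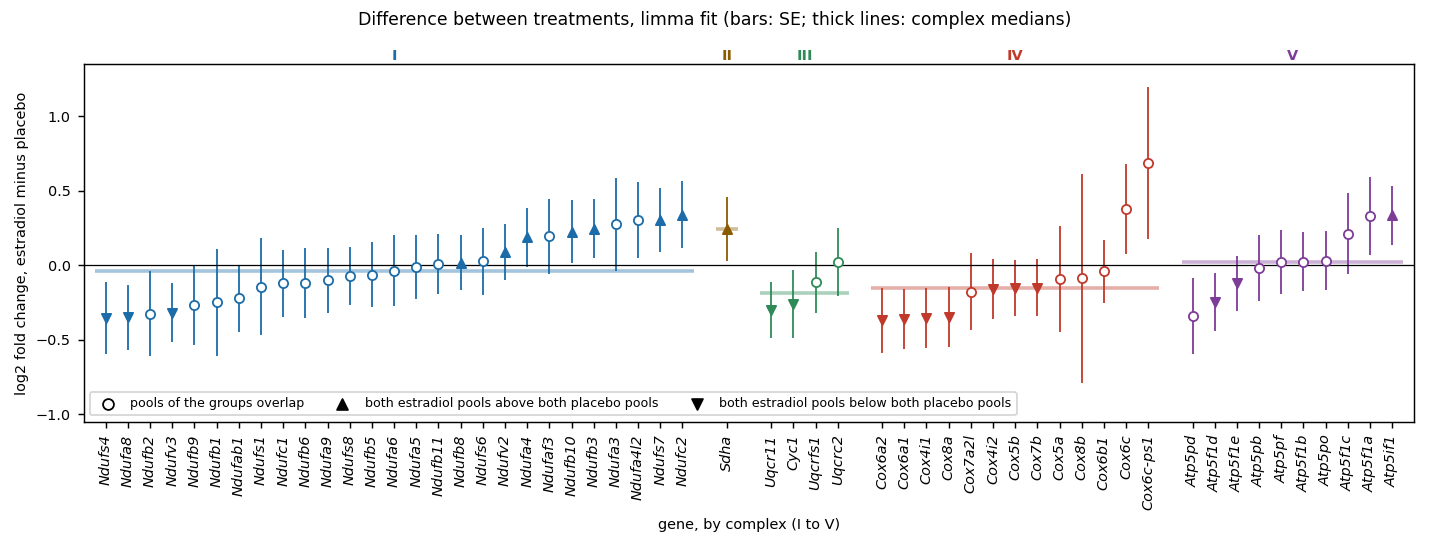
Log2 fold change (estradiol minus placebo) of each gene with its standard error from limma. Genes are grouped by complex as assigned from the symbol, with the median of each complex as a thick line. Filled triangles mark genes whose estradiol pools lie both above or both below the placebo pools; complex IV has 7 downward and 0 upward triangles, and complex I 3 downward and 7 upward, where all probe sets have 14.3% below and 15.4% above.

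Complex I showed no common direction, with 15 of 27 genes below 0, 12 above 0 and a median log2 fold change of -0.035. Both estradiol pools lay above both placebo pools for 7 genes, against 15.4% of all probe sets tested, and below them for 3, against 14.3%. At the low end were Ndufs4, an accessory subunit needed for assembly of the NADH-oxidising arm, and Ndufa8, an accessory subunit on the intermembrane-space side. Ndufs4 stood at 275 and 189 under estradiol against 295 and 296 under placebo, which do not overlap, and had a log2 fold change of -0.35 ± 0.24 (SE), or -0.16 as the mean over its probe sets. Ndufa8 stood at 921.5 and 727 against 1166 and 939.9, a log2 fold change of -0.35 ± 0.22 (SE). Ndufv3, a small subunit next to the NADH-binding site, was lower in both estradiol pools at 467 and 543 than in the placebo pools at 619 and 645, with -0.32. Ndufb2, an accessory subunit of the membrane arm, had -0.32 from estradiol 2 alone, since it stood at 1159 and 637 under estradiol against 1049 and 1113 under placebo. Its value without estradiol 2 was 0.099.

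The promoter window of Ndufs4, the lowest gene of complex I, held 1 match of AAGATGGCG, the letters of YY1, another known regulator of respiratory genes. The match is in capitals, for a window of the same length. In complex I the letters also occurred for Ndufs7 (log2 fold change 0.31), Ndufs6 (0.025), Ndufb8 (0.018), Ndufa6 (-0.035) and Ndufa9 (-0.10).
Ndufs4, GRCr8 chr2:47794885-47795164, minus strand: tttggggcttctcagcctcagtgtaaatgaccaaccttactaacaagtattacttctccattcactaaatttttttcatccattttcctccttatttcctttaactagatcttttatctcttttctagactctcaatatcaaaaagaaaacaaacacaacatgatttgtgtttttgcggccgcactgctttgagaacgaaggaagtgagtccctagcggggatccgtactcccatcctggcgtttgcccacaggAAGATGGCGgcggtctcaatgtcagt

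At the high end of complex I were Ndufc2 and Ndufs7. Ndufc2, an accessory subunit of the membrane arm, stood at 440.5 and 534 under estradiol against 335 and 431 under placebo, where the groups only just part, and had a log2 fold change of 0.34 ± 0.22 (SE). Ndufs7, a core subunit that carries the last iron-sulfur cluster before ubiquinone, stood at 657 and 604 against 444 and 576, with 0.31 ± 0.21 (SE). Ndufb3, a membrane-arm subunit, stood at 711 and 624 against 576 and 543.5, with 0.25. Ndufa4, placed in complex I by its symbol alone, stood at 880 and 769 against 697 and 745, with 0.19 and both estradiol pools higher. Core subunits did not share a direction: Ndufv2, which binds an iron-sulfur cluster near the NADH site, had 0.087, Ndufs8 -0.071 and Ndufs1 -0.14. The most even gene was Ndufb8, at 1567 and 1569 under estradiol against 1564 and 1532 under placebo. Here both estradiol pools exceeded both placebo pools with a log2 fold change of 0.018, which shows how small a difference that criterion can pass. Ndufa4l2, known as a hypoxia-induced relative of Ndufa4 rather than a regular subunit, stood at 259 and 188.5 under estradiol against 152 and 203.5 under placebo, with overlapping groups and a log2 fold change of 0.30 ± 0.25 (SE). Ndufaf3, an assembly factor, stood at 144 and 205 against 133 and 166, and its groups overlapped as well.

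The balance of complex I also turned with estradiol 2. Without that pool 5 of 27 genes were below 0 and 22 above, with a median of 0.099; without estradiol 1, 18 were below 0 and the median was -0.16. Over all probe sets tested, the median was 0.011 without estradiol 2 and 0.021 without estradiol 1.

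Complexes II and III were covered by 1 and 4 genes. Sdha, the flavoprotein subunit of succinate dehydrogenase, which belongs both to the chain and to the citric acid cycle, stood at 438.5 and 562.5 under estradiol against 414 and 421 under placebo. Both estradiol values were the higher ones, with a log2 fold change of 0.24 ± 0.21 (SE) that came mostly from estradiol 2 and was 0.069 without it. In complex III, 3 of 4 genes were below 0, with a median of -0.19. Uqcr11, a small subunit, stood at 2156 and 2029 under estradiol against 2388 and 2784 under placebo. Its groups did not overlap, and its log2 fold change was -0.30 ± 0.19 (SE), staying between -0.41 and -0.19 with any 1 array left out and -0.17 after quantile normalization. Cyc1, cytochrome c1, stood at 1006 and 699 against 1007 and 1007, so its log2 fold change of -0.26 rested on estradiol 2, without which it was -0.0018. Uqcrfs1, the Rieske iron-sulfur protein, had -0.12 and Uqcrc2, a core protein, 0.022, both with overlapping groups.

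ATP synthase showed no common direction either, with 4 of 10 genes below 0 and a median log2 fold change of 0.023. Its F1 catalytic core is formed by the alpha and beta subunits around the rotating gamma subunit, encoded by Atp5f1a, Atp5f1b and Atp5f1c. Atp5f1a stood at 477 and 650 under estradiol against 364 and 532.5 under placebo, with a log2 fold change of 0.33 ± 0.26 (SE). Atp5f1c stood at 511 and 805 under estradiol against 477 and 637 under placebo, with 0.21 ± 0.27 (SE). In both genes pool 2 exceeded pool 1 within each treatment, and the groups overlapped. Atp5f1b stood at 1814 and 2259 against 1975.5 and 2006, with a log2 fold change of 0.024 ± 0.20 (SE). The rotor subunits delta and epsilon ran the other way in the probe sets of highest mean, with both estradiol pools below both placebo pools. Atp5f1d stood at 610.5 and 586 under estradiol against 666 and 762 under placebo, with a log2 fold change of -0.25 ± 0.20 (SE), and Atp5f1e had -0.12. The other tested probe set of Atp5f1d overlapped, at 421 and 545.5 against 433 and 538, with -0.0095. That of Atp5f1e had -0.36 without overlap. Of the stalk subunits, Atp5pd had -0.34 ± 0.26 (SE) with overlapping groups, at 637 and 414.5 against 592 and 722.5, while Atp5pb, Atp5pf and Atp5po lay between -0.018 and 0.031.

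Atp5f1c differed from Cox4i1 and Cox8a in its order of pools. Atp5f1a, with the same order as Atp5f1c, had the ETS letters, and no link of letters to an order of pools was tested. The promoter window of Atp5f1c held 1 match of the letters of NRF1, a further known regulator. It consists of GCGC repeated after a gap of 2 bases, in capitals with the gap.
Atp5f1c, GRCr8 chr17:73333435-73333714, plus strand: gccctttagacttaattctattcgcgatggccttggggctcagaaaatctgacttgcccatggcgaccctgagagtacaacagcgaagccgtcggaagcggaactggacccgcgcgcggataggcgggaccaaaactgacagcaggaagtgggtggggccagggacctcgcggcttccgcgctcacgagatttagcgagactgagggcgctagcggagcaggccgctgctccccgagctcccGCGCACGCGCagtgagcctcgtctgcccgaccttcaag

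Atp5if1, the inhibitory factor that blocks ATP hydrolysis by the enzyme when the proton gradient fails, had the highest value of this complex. It stood at 648.5 and 572.5 under estradiol against 476.5 and 483 under placebo, so both estradiol pools were higher. The means of 610.5 ± 53.7 (SD, n = 2) and 479.8 ± 4.60 (SD, n = 2) differed by 27.3%, and the log2 fold change was 0.34 ± 0.20 (SE), with a 95% confidence interval from -0.12 to 0.79. With 1 array left out it lay between 0.25 and 0.42. The other tested probe sets of Atp5if1 had overlapping groups. One stood at 302.4 and 355.5 against 339.9 and 333.8, with -0.037, and a dim one at 72.5 and 65.5 against 36.6 and 72.1, with 0.32. The mean over the tested probe sets gave 0.21.

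The clearest pattern among the 55 genes was between pools and not between treatments. Estradiol 2 was the lowest of the 4 arrays for 32 of the 55, or 58.2%, against 25.2% of all probe sets tested, and estradiol 1 was the highest for 21, or 38.2%, against 23.1%. Placebo 1 was lowest for 15 (background 29.8%), placebo 2 for 5 (22.8%) and estradiol 1 for 3 (22.2%). The highest array was estradiol 2 for 10 (28%), placebo 1 for 11 (23%) and placebo 2 for 13 (25.8%). By complex, estradiol 2 was lowest for 15 of 27 genes of complex I, 3 of 4 of complex III and 11 of 13 of complex IV, but for 3 of 10 of complex V. The median difference of estradiol 1 minus estradiol 2 on the log2(intensity + 16) scale was 0.34 in complex I, 0.30 in complex IV and -0.027 in complex V, against -0.012 over all probe sets. For the placebo pools this difference (placebo 1 minus placebo 2) was -0.048, 0.11 and -0.23 in the same order, against -0.043. The median size of the difference between pools over the 55 genes was 0.31 with estradiol and 0.17 with placebo, against 0.26 and 0.27 over all probe sets tested. Pools more than 1 apart on that scale were seen in 1 of the 55 with estradiol (4.73% of all probe sets) and in 2 with placebo (6.05%), namely Cox8b in both groups and Cox6c-ps1 with placebo. The pattern was noticed in these values and was not tested. The 36 other tested probe sets of these genes, which did not enter the counts above, had estradiol 2 as the lowest array in 18 cases, or 50.0%. They read the same genes on the same 4 arrays, so they are no independent check of the pattern.

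**Figure D3:**
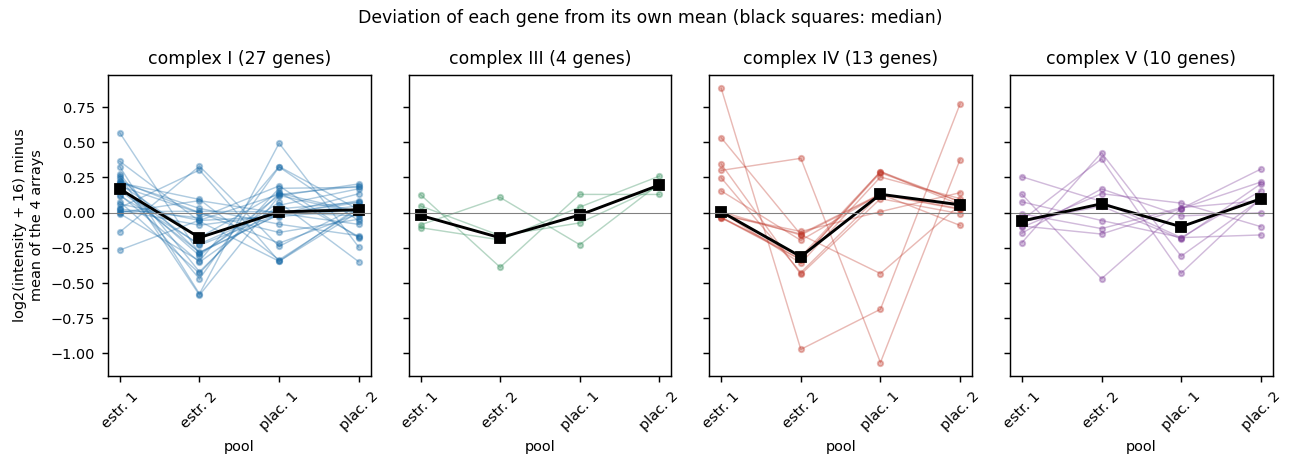
Deviation of each gene from its own mean over the 4 arrays, on the log2(intensity + 16) scale, in each pool (coloured points, with lines joining the values of 1 gene) and the median (black squares), for complexes I, III, IV and V. The medians of complexes I and IV are lowest in estradiol 2, at -0.18 and -0.31, while that of complex V is 0.063 there.

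Markers of cell types did not follow this order of pools in a single way. Neuron markers, 13 of 16 on the array, summed to 16018 and 16806 under estradiol against 15362 and 19730 under placebo, but the members of the list differed: of 12 tested, 12 were higher in placebo 2 than in placebo 1, and 7 were higher in estradiol 2 than in estradiol 1. Slc17a7, the vesicular glutamate transporter gene of cortical excitatory neurons, was at background on all arrays in the probe set used, while Snap25, a presynaptic gene, stood at 2664 and 2340 under estradiol against 1958.5 and 3000.5 under placebo. Astrocyte markers summed to 14626 and 14741 against 15216 and 15557. Blood cell markers summed to 2087 and 4461 against 6406 and 5611, and choroid plexus and meninges markers to 946 and 5525 against 10237 and 721. The sums of vascular markers were 1949 and 1624 against 2532 and 1805, those of microglia and macrophage markers 1608.5 and 1926 against 1631 and 1576.5, and those of striatum markers 3278 and 3161 against 2251 and 2519. Most striatum markers did not share the order of their sum under estradiol. Of 10 tested, 8 were higher in estradiol 2 than in estradiol 1 and 2 were lower, among them the bright Pdyn at 1150 and 687. Of 9 vascular markers tested, 4 were higher in estradiol 2 and 5 in estradiol 1. Of the genes of these lists, Itgam, Csf1r, Vwf, Slc6a13 and Drd2 were also at background on all arrays. The part of these markers in the values of the 55 genes was not tested.

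Probe sets of 1 gene often disagreed, which limits how far a single value can be read. Of 25 genes with more than 1 tested probe set, 12 had log2 fold changes of both signs, and in 6 the probe sets lay more than 0.5 apart. Cox6c was the widest case. The probe set of highest mean stood at 241 and 143 under estradiol against 116 and 169 under placebo, with 0.38 ± 0.30 (SE). The other stood at 31.5 and 26.5 with estradiol, within the background, and at 123.8 and 111.8 with placebo, so it was at least 3.29-fold lower with estradiol (limma unadjusted p = 5.80e-04, adjusted p = 0.998). Among the 36 other tested probe sets of these genes, 1 was higher and 2 were lower at an unadjusted p under 0.05 in limma, against 1.74% and 1.33% of all probe sets, and this was one of them. The remaining ones were a probe set of Atp5po, at 1333 and 1090 against 834 and 891 with a log2 fold change of 0.48, and one of Ndufb8, at 1130 and 813 against 1356 and 1393 with -0.51. The brighter probe sets of both genes gave 0.031 and 0.018.

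In 13 genes all tested probe sets had the same sign, though not always a like size; the median spread over the 25 genes was 0.34. For Cox4i1 the 3 probe sets lay between -0.35 and -0.24, for Cox8a the 4 probe sets between -0.45 and -0.048, and for Cox6a1 the 3 probe sets between -0.36 and -0.059. For Ndufaf3 all 3 lay between 0.15 and 0.19. Genes whose probe sets had both signs were Ndufs4, Ndufab1, Ndufc1, Ndufs8, Ndufb5, Ndufb8, Ndufa4l2, Uqcrfs1, Cox5b, Cox6b1, Cox6c and Atp5if1. For Ndufab1, the mitochondrial acyl carrier protein, the values were -0.22 and 0.41, for Ndufb5 -0.063 and 0.62, and for Uqcrfs1 from -0.40 to 0.28. Ndufa4l2 ranged from -0.73 to 0.30 over 4 probe sets. A further 10 probe sets of the 55 genes were too dim to be tested, and 8 of these were at background on all arrays. Another 7 probe sets matched the naming rule only through 1 of several symbols and are not counted among the 55. Their log2 fold changes ran from -0.18 for Ndufb4 to 0.54 for Cycs, both with overlapping groups. All but those of Ndufb4 and Atp5mc1 (-0.029) lay above 0.

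**Figure D4:**
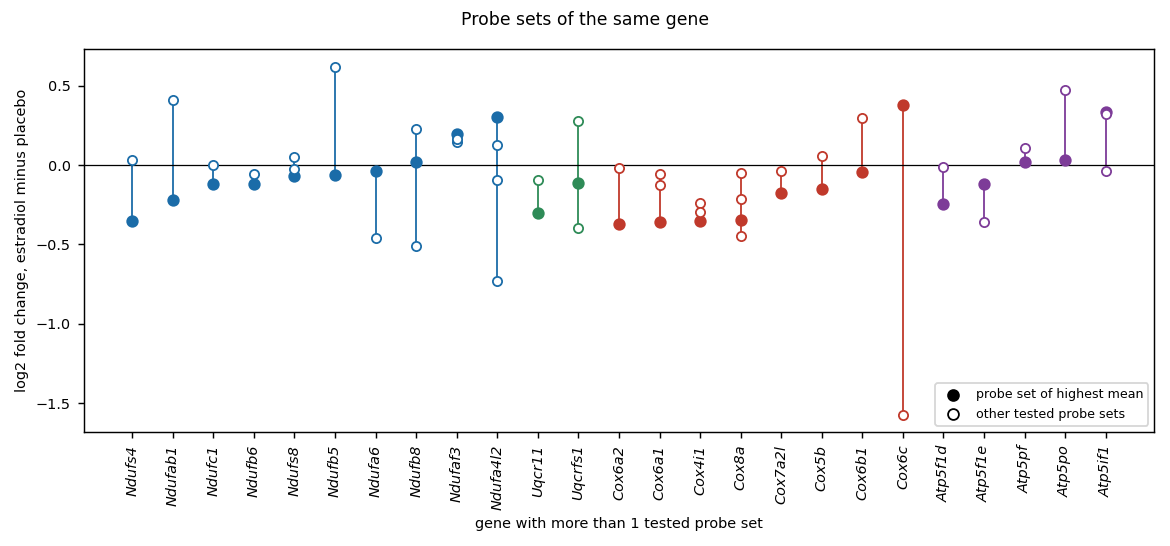
Log2 fold change (estradiol minus placebo) of every tested probe set of the 25 genes with more than 1; filled points are the probe sets of highest mean and open points the others. The probe sets of Cox4i1 lie close together below 0, whereas those of Cox6c span 0.38 to -1.57.

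Other genes of mitochondrial energy metabolism gave 1 value at an unadjusted p under 0.05 and none past the adjusted threshold in limma. The unadjusted level was reached by 1.74% of all probe sets as higher and 1.33% as lower, so that 1 value is no result about these genes. Of the genes of pyruvate dehydrogenase and the citric acid cycle, 13 were tested, 7 above 0 and 6 below, with a median log2 fold change of 0.011. Their lowest was Dlst, a subunit of the 2-oxoglutarate dehydrogenase complex, at 228 and 268 under estradiol against 327 and 348 under placebo, with -0.42 ± 0.21 (SE). Their highest was Pdk2, a kinase that switches off pyruvate dehydrogenase, at 470 and 481 against 411 and 427, with 0.18. Of 14 carriers and porins, 11 were below 0, against 48.4% of all probe sets tested, with a median of -0.13. Ckmt1, the mitochondrial creatine kinase, which passes the energy of ATP on to creatine, was their lowest, at 607 and 754 under estradiol against 1196 and 879 under placebo. Its groups did not overlap, and its log2 fold change was -0.59 ± 0.23 (SE; unadjusted p = 0.0357, adjusted p = 0.998 in limma). Slc25a14, an uncoupling-protein relative found in brain, was the highest, at 183 and 176 against 129 and 121, with 0.47 ± 0.21 (SE). Of assembly factors and other electron donors 4 were tested, from Etfdh with -0.12 to Coq3 with 0.79. Coq3 stood at 81.3 and 159 under estradiol against 26.5 and 119 under placebo, with overlapping groups. Of the regulators of mitochondrial genes only Creb1 passed the filter, with -0.30.

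All RefSeq promoter windows of these genes were searched for the same letters, because nuclear genes of the chain are known to share binding sites for NRF1, the ETS factor GABP and YY1. Windows of 250 bases before and 50 bases after the start were found for 46 of the 55 genes. On either strand, CCGGAAG, the core of an ETS site, was present in 9 of 46, or 19.6%, against 8.75% of 33469 promoters. The NRF1 letters, GCGC repeated after a gap of 2 bases, were present in 7, or 15.2%, against 5.58%, and AAGATGGCG, the YY1 letters, in 7, or 15.2%, against 1.73%. TATAAA was present in 2, or 4.35%, against 14.2%. The estrogen response element palindrome, GGTCA and TGACC with 3 bases between them, was present in 0 of 46 windows and in 0.0269% of all, which says only that these letters are not in these windows. ETS letters were found in 3 of 9 complex IV windows and YY1 letters in 6 of 25 complex I windows. A match is a description of the letters and not a bound site.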

How the data were processed

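Expression was measured on Affymetrix rat oligonucleotide arrays, 1 per RNA pool. For each array the authors deposited linear intensities, 1 value a probe set, already scaled to a common level per array (seen from the trimmed means); the sources used here name no program for this step. Of 8799 probe sets, 59 controls were left out. Intensities were used as deposited, transformed as log2(intensity + 16), and filtered at the 40th percentile of mean intensity. Fold changes on this scale understate changes of dim probe sets. Differences were tested with limma 3.58.1 in R 4.3.3 (lmFit, eBayes with intensity trend, two-sided, Benjamini-Hochberg over 5244 probe sets, threshold 0.05), checked on simulated data. P-values set the difference between treatments against the spread between pools, which limma moderates with the spread of all probe sets tested. A fold against a group at background is a lower bound, computed against each array's brightest of 23 foreign controls. Gene identifiers of all 55 genes were found in the RefSeq table of GRCr8 with unchanged symbols. The members, lists and tests were chosen with earlier results of these data known. The genes with the highest and lowest value of each complex, those with pools more than 1 apart on the log2 scale and those with probe sets of both signs were named by rule, and others after their values were seen. Alternatives were offsets of 1 and 64, other filters, quantile normalization, median centring, gene means, no trend, a replicate block and leaving out each array. Summaries used pandas 2.3.3 under Python 3.11.15, and figures matplotlib 3.10.9.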

Additional observations from a re-analysis of the deposited data

How the results depend on the processing

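Under all 13 alternatives, limma called 0 of these genes higher and 0 lower after adjustment, and the smallest adjusted p of the 38 genes with values tabulated was 0.956. With 1 array left out, the median of the 55 genes ranged from -0.21 (without estradiol 1) to 0.065 (without estradiol 2), that of complex IV from -0.48 to -0.069 and that of complex III from -0.28 to -0.043, with the same pools left out; an arm with 1 pool is assumed to vary like the other. With structural subunits only, an alternative chosen after seeing the data, the median was -0.090, and with the probe sets of several symbols added, also chosen then, -0.038. Of 38 genes, 23 kept their sign throughout. Other filters, the fit without trend and the replicate block cannot change a fold change, so a kept sign under these carries no information. Quantile normalization brought Cox4i1 to -0.19, Cox8a to -0.17, Uqcr11 to -0.17, Cox6a1 to -0.24 and Cox5b to -0.095, and turned Cox6b1 to 0.020, and median centring turned Ndufb8 to -0.0066, Uqcrc2 to -0.0028 and Atp5f1b to -0.00090. The mean over probe sets brought Ndufs4 to -0.16, Cox6a2 to -0.20, Cox6a1 to -0.18, Cox5b to -0.047, Atp5f1d to -0.13 and Atp5if1 to 0.21, and turned Ndufab1 to 0.095, Ndufb5 to 0.28, Ndufb8 to -0.089, Ndufa4l2 to -0.098, Cox6b1 to 0.13 and Cox6c to -0.60. With 1 array left out, values crossed 0 for several of these 38 genes. Complex I had Ndufb2 (-0.75 to 0.099), Ndufb9 (-0.60 to 0.069), Ndufab1 (-0.46 to 0.017), Ndufc1 (-0.34 to 0.099) and Ndufb5 (-0.26 to 0.14). Complex III had Uqcrc2 (-0.19 to 0.24) and Uqcrfs1 (-0.25 to 0.015). Complex IV had Cox8b (-1.01 to 0.84), Cox6b1 (-0.22 to 0.13) and Cox6c-ps1 (-0.034 to 1.41). Complex V had Atp5f1b (-0.13 to 0.18) and Atp5f1c (-0.11 to 0.53). Further genes outside the 38 also crossed 0, among them Ndufa3 (-0.15 to 0.70), Ndufb1 (-0.70 to 0.20) and Cox5a (-0.48 to 0.30). The cause was not tested. The replicate number gave no evidence of pairing (correlation of deviations 0.036 over probe sets), and with it as a block there were again 0 calls. The medians could not change with that block, because each replicate number had 1 array in each group. The filter at the 60th percentile left 51 of the 55 genes. The number of arrays limits the precision throughout.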
